A study of Mus musculus with 2 samples.

Results

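The 37 genes described here encode enzymes and carrier proteins that remove superoxide and peroxides and that make, recycle and use glutathione. They were chosen by name from a fixed list, with no measured value in the choice, and were taken from 16269 genes of the reference annotation that had counts. The data come from heart tissue of male B6CASTF1/J mice, hybrids of the laboratory strain C57BL/6J and the wild-derived strain CAST, aged 14 days. The series holds 1 group of 2 long-read RNA sequencing libraries, replicate 1 and replicate 2, each made from 2 µg of total RNA with no treatment named. No condition can be compared, and each test below sets these 2 libraries against each other on counting error alone. The labels name the same donor for both, mention 3 males without saying whether tissue was pooled, and give both libraries the same tissue sample and cDNAs in 1 field while numbering the tissue samples differently in another. The spread between the libraries may therefore be partly technical. Both libraries are of bulk tissue, so for any gene fewer cells of a type and less RNA per cell cannot be told apart.

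Heart muscle makes most of its ATP in mitochondria, whose electron transport leaks electrons to oxygen and so forms superoxide. Superoxide dismutases turn superoxide into hydrogen peroxide, and catalase, peroxiredoxins and glutathione peroxidases reduce the peroxide to water. Most peroxiredoxins draw their electrons from thioredoxin, which thioredoxin reductases recharge with NADPH. Most glutathione peroxidases draw theirs from glutathione, which glutathione reductase recharges with NADPH. Glutathione transferases join glutathione to reactive compounds.

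All 37 genes had counts, 36 of them in both libraries. Together they held 9038 counts in replicate 1 and 8283 in replicate 2, which is 0.853% (95% Clopper-Pearson interval 0.836 to 0.871) and 0.778% (0.761 to 0.795) of the counts on reference genes, or 0.816% ± 0.0534 (SD, n = 2). Reference genes held 1059016 and 1064679 counts in all. Levels are given as CPM, each gene's counts scaled to 1000000 counts on reference genes, so that 1 count is worth 0.944 CPM in replicate 1 and 0.939 CPM in replicate 2. A level of 0 counts allows up to 2.83 or 2.82 CPM, the worth of 3 counts. Intervals cover counting error only.

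The levels spread widely within the list. Prdx1, Prdx2 and Sod2 alone took 34.2% of the genes' counts in each library, and the 6 genes with a mean of 500 CPM or more took 54.9% and 52.7%. A further 11 genes had means between 100 and 500 CPM, 18 had means between 20 and 100 CPM, and 2 lay below 20 CPM. Each long read is 1 count whatever its length, and the order was also taken per kilobase of the dominant annotated transcript. Of the 10 highest genes by CPM, 8 were also among the 10 highest per kilobase, where Prdx2 came first at 633 CPM per kilobase, Gpx4 next at 602 and Prdx1 after it at 418. Sod2, whose dominant annotated transcript is listed with 5861 bases, and Glrx5 left the top 10 on that scale, and Gstp1 and Glrx3 entered it.

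**Figure D1:**
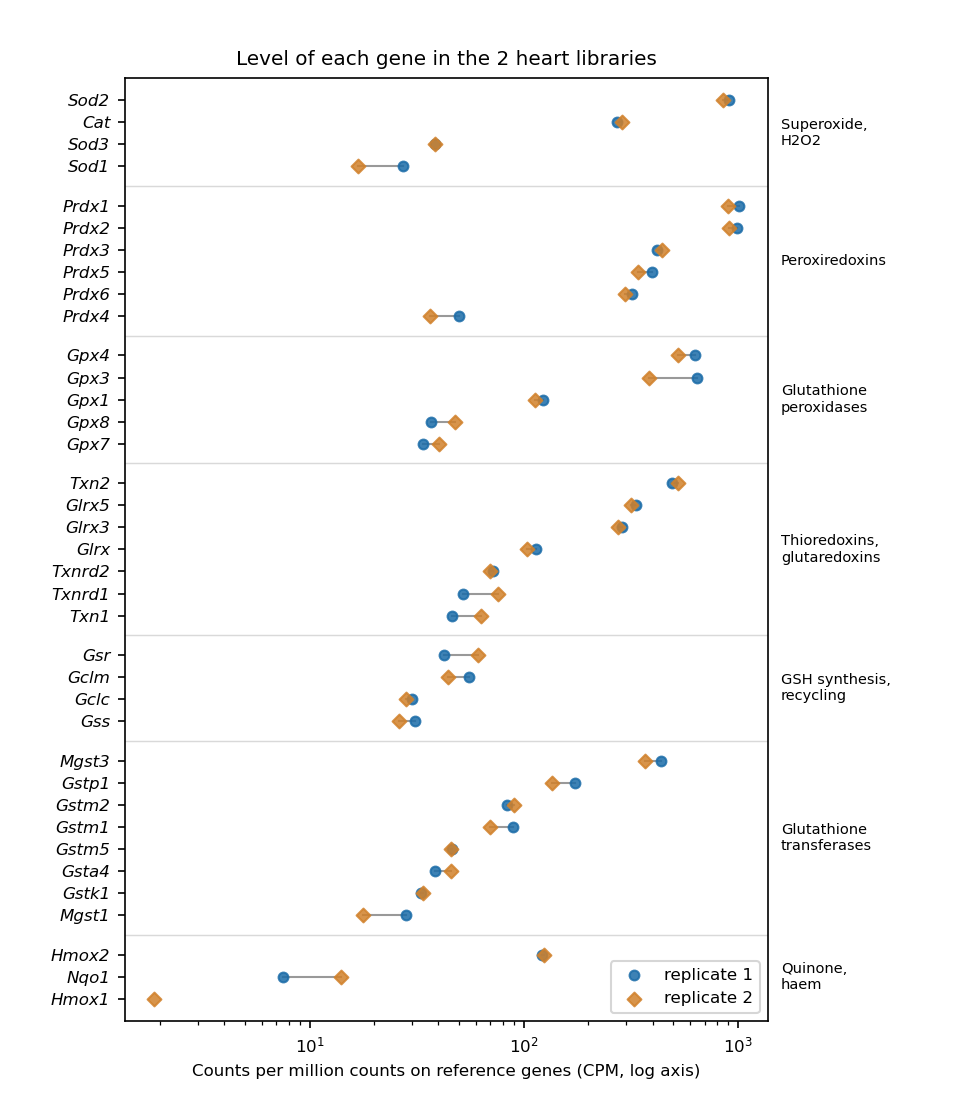
Level of each of the 37 genes in CPM on a log axis, with circles for replicate 1 and diamonds for replicate 2, joined by a line and grouped by role. Prdx1, Prdx2 and Sod2 lie highest, and Hmox1, with 0 and 2 counts, has a point in replicate 2 only.

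Several of these enzymes are selenoproteins, in which the codon TGA is read as selenocysteine, the residue that does the chemistry, instead of stopping translation. Gpx1, Gpx3, Gpx4, Txnrd1 and Txnrd2 carry it. Their sequences around that codon are shown because the deposited models can be checked for whether their exons cover it. Letters are from the GENCODE M21 transcripts on mm10, on the plus strand, with the selenocysteine codon in capitals.
Gpx1: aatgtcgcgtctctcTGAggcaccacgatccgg
Gpx3: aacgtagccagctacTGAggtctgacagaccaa
Gpx4: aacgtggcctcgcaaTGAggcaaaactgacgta
Txnrd1: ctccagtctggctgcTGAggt
Txnrd2: actgtgactggttgcTGAggc
In the glutathione peroxidases the codon lies in the body of the protein, at codon 47 of 201 in Gpx1 (chr9:108339436-108339468), codon 73 of 226 in Gpx3 (chr11:54907241-54907273) and codon 73 of 197 in Gpx4 (chr10:80054722-80054754). In both reductases it is the last codon but 1, at codon 498 of 499 in Txnrd1-208 (chr10:82896022-82896042) and codon 526 of 527 in Txnrd2-203 (chr16:18477757-18477777). Models that contain the codon held 100% of the Gpx1 counts in replicate 1 and 99.2% in replicate 2, and 99.9% and 99.6% of the Gpx4 counts. The share was 94.0% and 94.6% for Gpx3, 100% and 96.3% for Txnrd1 and 97.4% and 90.5% for Txnrd2. These shares rest on the exons of the deposited models, so they do not show that single reads held the codon.

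Of the enzymes of superoxide and hydrogen peroxide, the mitochondrial manganese dismutase Sod2 (chr17:13006846-13040063) had the most counts, 967 in replicate 1 and 908 in replicate 2, for a mean of 883 CPM ± 42.6 (SD, n = 2). Its log2 ratio, replicate 2 over replicate 1 on CPM plus 1, was -0.10, with an adjusted p of 0.629 in the exact binomial test with Benjamini-Hochberg adjustment over 10162 genes. Catalase, Cat (chr2:103453849-103485160), which splits hydrogen peroxide in peroxisomes, followed with 290 and 307 counts (281 CPM ± 10.3, log2 ratio 0.07, adjusted p = 0.935 in the same exact test). The extracellular dismutase Sod3 had 41 counts in each library. Sod1, the copper and zinc dismutase of the cytosol, had 29 and 18 counts (22.1 CPM ± 7.41), the fewest of the 4. Per kilobase of dominant transcript Sod2 stood at 151 CPM, Cat at 108, Sod1 at 34.5 and Sod3 at 10.3, so that Sod3 came below Sod1 on that scale. In counts, with no adjustment for length, Sod2 held 97.1% (95.8 to 98.0) and 98.1% (96.9 to 98.8) of the pair of intracellular dismutases. The dominant transcript has 5861 bases in Sod2 and 641 in Sod1, and any effect of length on these shares was not tested. Of the Sod1 counts, 5 and 1 fell on Sod1-202, a transcript with a retained intron. The group as a whole held 0.125% and 0.120% of all counts.

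Peroxiredoxins, thiol peroxidases that act at low peroxide concentrations, were the group with the most counts, 0.319% and 0.293% of all counts on reference genes. Prdx1 (chr4:116685544-116700822) had 1071 and 963 counts (958 CPM ± 75.5) and Prdx2 (chr8:84969587-84974834) had 1050 and 965 (949 CPM ± 60.2). Both are cytosolic, and their levels in CPM overlapped across the libraries. The log2 ratio was -0.16 for Prdx1 and -0.13 for Prdx2, and the exact binomial test gave adjusted p of 0.202 and 0.383. The mitochondrial Prdx3 had 446 and 474 counts, and Prdx5, which is found in mitochondria, peroxisomes and cytosol, had 420 and 364. Prdx6, which reduces lipid peroxides with glutathione, had 338 and 318 counts, and Prdx4, which works in the endoplasmic reticulum, had 53 and 39. Prdx4 thus had the fewest counts of the 6 in both libraries, and at 43.8 CPM per kilobase it was also the lowest on that scale. Prdx3 took 29.4% (27.1 to 31.8) and 33.0% (30.6 to 35.5) of the counts on Prdx3 and Prdx1, intervals that overlap.

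Glutathione peroxidases held 0.147% of all counts in replicate 1 and 0.111% in replicate 2, with intervals of 0.140 to 0.155 and 0.105 to 0.117 that do not overlap. The same held for the whole list and for peroxiredoxins (0.308 to 0.330 and 0.283 to 0.304). It also held for glutathione transferases (0.0876 to 0.0993 and 0.07565 to 0.0866), while intervals of the other role groups overlapped. The glutathione peroxidases included both genes of the list that passed the test, each higher in replicate 1, as were 1.65% of all 10162 genes tested. Gpx3 (chr11:54902453-54910377), the secreted enzyme known from blood plasma, had 685 counts in replicate 1 and 408 in replicate 2 (515 CPM ± 186). It was 1.69-fold higher in replicate 1 (95% counting interval 1.49 to 1.91), with a log2 ratio of -0.75 and an adjusted p of 6.83e-15 in the exact binomial test. Gpx4 (chr10:80047166-80056439), which reduces lipid peroxides in membranes and guards against ferroptosis, had 667 and 559 counts (577 CPM ± 74.1). It was 1.20-fold higher in replicate 1 (1.07 to 1.34), with a log2 ratio of -0.26 and an adjusted p of 0.0474 in the exact test, just inside the threshold of 0.05. Gpx1, the main enzyme of cytosol and mitochondria, had 131 and 120 counts, while Gpx8 and Gpx7, both of the endoplasmic reticulum, had 39 and 51 and 36 and 43 counts. The values of Gpx1, Gpx7 and Gpx8 did not pass the test.

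Over the whole list, 2 of the 36 genes tested were higher in replicate 1 and 0 were higher in replicate 2. Of all genes tested 1.65% and 1.6% were called in these directions. At an unadjusted p under 0.05 in the exact binomial test 7 genes were higher in replicate 1 (Prdx1, Prdx2, Prdx5, Gpx3, Gpx4, Gstp1 and Mgst3) and 1 in replicate 2 (Txnrd1), beside 4.73% and 7.54% of all genes. The median log2 ratio of the 36 genes was -0.08, with 23 genes below 0 and 13 above. Over all genes tested the median was 0.08, and 43.9% lay below 0. With the TMM scaling of edgeR, which sets the median of all genes near 0, Mgst3, Prdx1 and Prdx2 also passed, for 5 genes higher in replicate 1, beside 2.37% of all genes. The same scaling turned the calls over all genes from 168 higher in replicate 1 and 163 in replicate 2 to 241 and 92. In edgeR's exact test with a common dispersion taken from these same libraries, neither gene passed, with an adjusted p of 0.378 for Gpx3 and 1 for Gpx4.

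**Figure D2:**
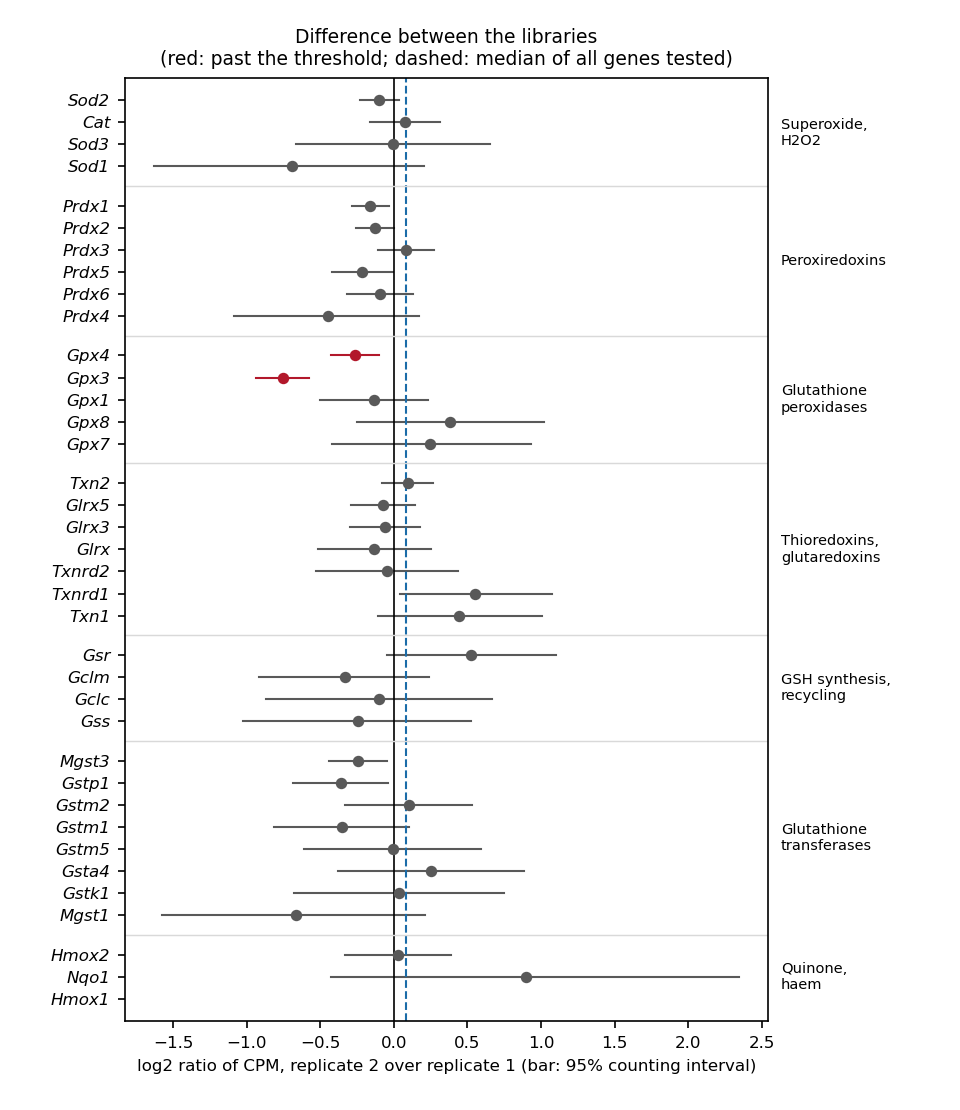
Log2 ratio of CPM, replicate 2 over replicate 1, for the 36 genes tested, with 95% counting intervals, a solid line at 0 and a dashed line at the median of all genes tested, 0.08. Gpx3 and Gpx4, in red, lie to the left of 0, the side of replicate 1, and are the only genes of the list past the threshold.

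The ratio between the libraries moved with transcript length. Among all genes with 50 or more counts, the median log2 ratio was -0.25 for dominant transcripts under 1000 bases and 0.16 for those of 4000 bases or more. The genes of the list have short transcripts, with a median of 1345 bases beside 2639.5 for all genes tested. With the trend on length removed their median log2 ratio was -0.13, beside 0.01 for all genes. With the trend on length removed, Gpx3 kept a log2 ratio of -0.79, while that of Gpx4, whose dominant transcript has 959 bases, moved to -0.14 with an adjusted p of 0.645 in the exact binomial test. Prdx1 and Sod2, with longer transcripts, then passed as higher in replicate 1, for 3 genes of the list, beside 1.08% of all genes.

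**Figure D3:**
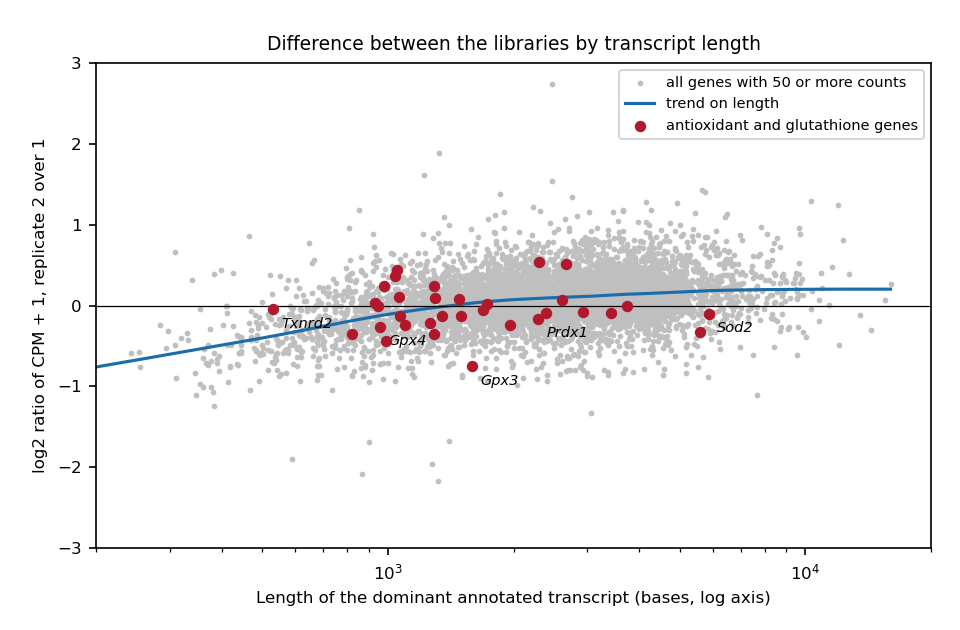
Log2 ratio of CPM plus 1, replicate 2 over replicate 1, against the length of the dominant annotated transcript on a log axis, for 5365 genes with 50 or more counts in grey, of which 8 lie outside the axes, and 33 genes of the list in red. The blue trend climbs with length, Gpx4 lies close to it and Gpx3 lies well below it.

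The libraries also differed in marker genes of heart chambers and of other cell types. Atrial markers (Nppa, Myl7, Myl4 and Sln, all 4 higher in replicate 1) summed to 0.487% and 0.120% of counts, a ratio of 4.05. Adipocyte markers summed to 0.0499% and 0.0317%, with Fabp4, Cidea and Ucp1 of 6 higher in replicate 1. Fabp4, also in the endothelial list, held 343 of 528 adipocyte counts in replicate 1 and 234 of 337 in replicate 2. Cfd (23 and 23 counts), Adipoq (8 and 6) and Plin1 (2 and 2) were not called. Red blood cell markers summed to 1.73% and 1.28%, with 4 of 8 higher in replicate 1, all globins with short transcripts. With the trend on length removed Hba-a2 and Hbb-bt no longer passed. Cardiomyocyte markers summed to 4.72% and 4.85%, with Tnni3, Pln and Myl2 higher in replicate 1 and Myh6 and Actc1 higher in replicate 2. Of these only Pln still passed with the trend on length removed. Actn2 then passed as higher in replicate 1 and Myl3 as higher in replicate 2. Fibroblast markers summed to 0.728% and 0.696%, with Gsn of 8 higher in replicate 1. Dcn (783 and 686 counts) also passed as higher in replicate 1 with the trend on length removed (adjusted p = 0.0453 in the exact binomial test). Endothelial markers summed to 0.101% and 0.0891%, with Fabp4 of 7 higher in replicate 1. Macrophage markers went the other way in sum, with 0.0291% (0.0259 to 0.0325) and 0.0399% (0.0362 to 0.0439) and Lyz2 of 7 higher in replicate 2 (97 and 182 counts). C1qa (61 and 77), C1qb (47 and 67) and Adgre1 (5 and 10) had more counts in replicate 2 without passing. C1qc had 62 and 61 counts, Csf1r 28 and 28 and Cd68 8 and 0. Thymus markers summed to 0 and 71 counts, with Ptcra at 0 in both, and all 4 lung markers were at 0 in both. The part of these values in the differences of Gpx3 and Gpx4 was not tested.

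Among thioredoxins and glutaredoxins, the mitochondrial thioredoxin Txn2 (chr15:77915047-77929006) had the most counts, 522 and 560 (509 CPM ± 23.4, log2 ratio 0.09, adjusted p = 0.789 in the exact binomial test). The cytosolic Txn1 had 49 and 67 counts. Txn2 held 91.4% (88.8 to 93.6) and 89.3% (86.6 to 91.6) of the counts on both thioredoxins. Glrx5 (chr12:105032688-105042906), a mitochondrial glutaredoxin that hands on iron-sulfur clusters, had 353 and 337 counts (325 CPM ± 11.9, log2 ratio -0.07, adjusted p = 0.935 in the same exact test). Glrx3, which carries iron in the cytosol, had 305 and 294 counts, and Glrx, which removes glutathione from proteins, had 121 and 111. Of the reductases, the mitochondrial Txnrd2 had 76 and 74 and the cytosolic Txnrd1 had 55 and 81, so that Txnrd2 held 58.0% (49.1 to 66.6) and 47.7% (39.7 to 55.9) of the pair. The order of the reductases was thus opposite in the libraries, with intervals that overlap. These pairs of a mitochondrial and another enzyme were set side by side after their values were seen.

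The enzymes that make and recycle glutathione had low counts. The catalytic and modifier subunits of glutamate-cysteine ligase, the rate-limiting enzyme of glutathione synthesis, had 32 and 30 counts (Gclc) and 59 and 47 (Gclm, 49.9 CPM ± 8.18, log2 ratio -0.33, adjusted p = 0.743 in the exact binomial test). Glutathione synthetase, Gss, had 33 and 28. Glutathione reductase, Gsr, had 45 and 65 counts (51.8 CPM ± 13.1, log2 ratio 0.51, adjusted p = 0.478 in the exact test). The group summed to 169 and 170 counts, 0.0160% of all counts in each library, and no gene of it passed the test. At counts of this size the 95% interval of a ratio is wide, from 0.631 to 1.83 for Gclc, replicate 1 over replicate 2.

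Of the glutathione transferases, the microsomal Mgst3 (chr1:167371966-167393841) had 465 and 394 counts (405 CPM ± 48.8, log2 ratio -0.25, adjusted p = 0.205 in the exact binomial test). Gstp1 (chr19:4035407-4037985) had 185 and 145 counts (155 CPM ± 27.2, log2 ratio -0.36, adjusted p = 0.299 in the same exact test). The mu class members Gstm2, Gstm1 and Gstm5 had 89 and 96, 94 and 74, and 49 and 49 counts. Gsta4, which acts on the lipid peroxidation product 4-hydroxynonenal, had 41 and 49, the mitochondrial and peroxisomal Gstk1 had 35 and 36, and the microsomal Mgst1 had 30 and 19. None passed the test. Values of genes with near copies are uncertain where reads could be placed on either: Gstp2 had 37 and 36 counts, Gstm7 55 and 41, Gstm4 38 and 22, and the pseudogene Gpx4-ps2 had 22 and 26.

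The quinone and haem enzymes ranged from the constitutive haem oxygenase Hmox2 (chr16:4726361-4766742), with 129 and 132 counts (123 CPM ± 1.53, log2 ratio 0.03, adjusted p = 1 in the exact binomial test), to the inducible Hmox1. Hmox1 had 0 and 2 counts, at or under the floor of 3 counts in both libraries, and was not tested. Nqo1, a quinone reductase, had 8 and 15 counts (10.8 CPM ± 4.62, log2 ratio 0.82, adjusted p = 0.718 in the exact test).

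Several genes of the list are textbook targets of NRF2, a transcription factor that binds antioxidant response elements. The core of that element, TGACNNNGC on either strand, was searched in RefSeq promoters (GRCm38.p6, 250 bases before to 50 after the start), of which 31 of the 37 genes had at least 1. It was found in 6 of the 31 genes (Gclm, Gstm5, Mgst1, Prdx1, Sod1 and Txnrd1), or 19.4%, and in 14.0% of all 27025 genes of the table. Its letters can overlap those of an AP-1 site. Of promoter windows, 6 of 41 held it (14.6%), beside 12.4% of all 32851. The 3 of these genes with the highest levels are shown, on the plus strand of the genome with the match in capitals.
Prdx1: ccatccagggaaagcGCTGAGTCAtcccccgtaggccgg
Txnrd1: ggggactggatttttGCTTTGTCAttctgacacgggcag
Gclm: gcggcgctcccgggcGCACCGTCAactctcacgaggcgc
They lie at chr4:116685451-116685489, chr10:82859099-82859137 and chr3:122245408-122245446, and the match begins 133, 92 and 134 bases before the start of transcription. A match describes these letters and is not a measured binding site.

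Genes of the same pathways, from 7 further lists, held 3 that passed of 92 tested (3.26%), the same share as over all genes (3.26%). None of the 9 tested NRF2 regulators passed. Their highest levels were those of Nfe2l1, a relative of NRF2 (204 and 261 counts), the autophagy receptor Sqstm1 (236 and 206) and the ubiquitin ligase subunit Rbx1 (215 and 183). Nfe2l2, which encodes NRF2 and is named here after its values were seen, had 104 and 119. Of 13 tested NADPH suppliers Idh1, the cytosolic isocitrate dehydrogenase, was higher in replicate 1 (145 and 95 counts, log2 ratio -0.61, adjusted p = 0.0394 in the exact binomial test). The mitochondrial Idh2 had the most counts of them, 2942 and 3089, followed by Taldo1 of the pentose phosphate pathway (320 and 289) and the mitochondrial malic enzyme Me3 (211 and 212).

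Of 13 tested genes of metal and haem handling Fth1, the ferritin heavy chain, was higher in replicate 1 (3344 and 3065 counts, log2 ratio -0.13, adjusted p = 0.0110 in the exact binomial test). That log2 ratio was 0.00 with the trend on length removed. The ferritin light chain Ftl1 had 420 and 428 counts and the transferrin receptor Tfrc 172 and 143. Of 5 tested superoxide sources Rac2, a GTPase of blood cells that activates NADPH oxidase, was higher in replicate 2 (4 and 33 counts, log2 ratio 2.74, adjusted p = 9.45e-05 in the exact test). The thymus markers and the macrophage markers also summed to more in replicate 2, the latter with only Lyz2 past the threshold. Their part was not tested. With edgeR's exact test Rac2 passed (adjusted p = 0.0112), while Idh1 and Fth1 did not (adjusted p = 1 for each). Its dispersion was taken from these same libraries, so the difference tested is part of its error term and it is no independent check. The NADPH oxidase subunit Cyba had 63 counts in each library and Xdh, xanthine dehydrogenase, 35 and 25.

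In the 3 remaining lists 0 genes passed. The 18 tested other glutathione genes had the most counts in Glo1 (454 and 500) and Hagh (184 and 180), the glyoxalases, and in Esd (143 and 140). Slc7a11, the cystine carrier, Gpx2 and Ggt1 were among 8 of 31 genes of that list with no counts. The 17 thiol redox and repair genes were led in counts by Park7 (315 and 319), Sesn1 (238 and 238) and the methionine sulfoxide reductase Msrb2 (140 and 128). The 17 selenoprotein genes were led by Selenop, the selenium carrier of plasma (372 and 311), Selenow (210 and 183) and Selenok (169 and 202).

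The authors gave each transcript model a class. A Known model matches an annotated transcript. An incomplete splice match (ISM) holds only part of its introns, an NIC model joins annotated splice sites in a way that is not in the annotation, an NNC model has at least 1 splice site that is not annotated, and the rest are called Genomic. Models other than Known held 6.58% (6.08 to 7.11) and 6.28% (5.76 to 6.82) of the list's counts, beside 19.3% and 19.6% of the counts on all reference genes. Most were ISM, with 4.09% and 3.86%, and NNC models held 1.69% and 1.46%. Of the Known counts 99.8% and 99.9% lay on protein-coding transcripts, beside 96.4% and 96.8% over all genes. Among genes with 100 or more counts in each library the share outside Known models was lowest in Gpx1, at 0% and 0.833% (mean 0.417%), and highest in Glrx5, at 17.6% and 19.9%. Whether counting used strand is not given in the sources used here. Prdx2, Hmox2, Sod1, Prdx5, Gss and Txnrd2 overlap annotated genes on the other strand, such as Junb (49 and 66 counts) at Prdx2, and genes that the authors' annotation adds on the other strand of Sod2 held 65 and 34 counts, of which 63 in replicate 1 lie on a model recorded as 1 base long.

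**Figure D4:**
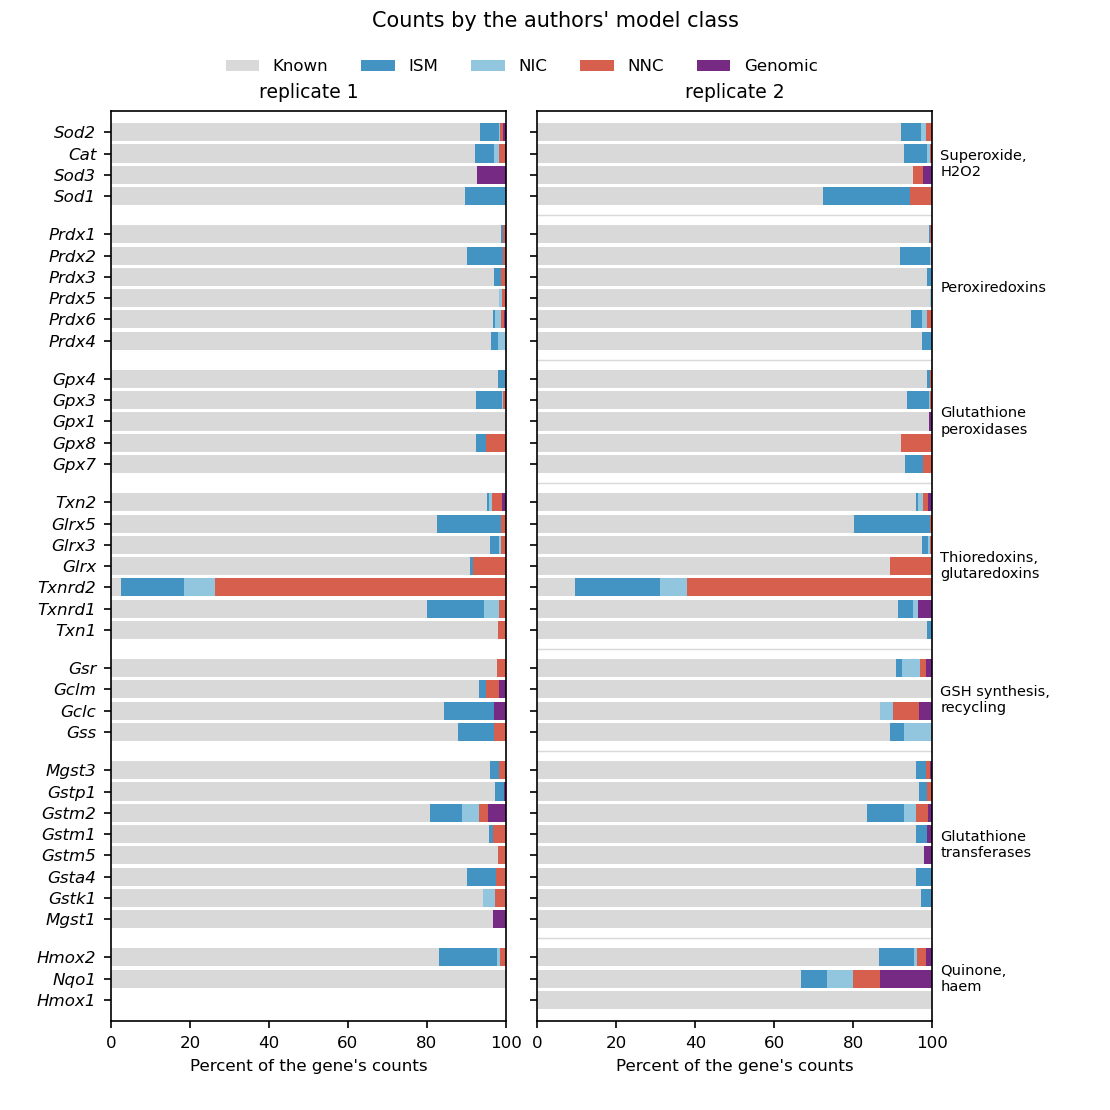
Percent of each gene's counts by the authors' model class in replicate 1 and replicate 2, for the 37 genes grouped by role. Txnrd2 stands apart in both libraries with few Known counts and mostly NNC models, and Hmox1 has no bar in replicate 1, where it had 0 counts.

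Txnrd2 (chr16:18426384-18479073), which keeps mitochondrial thioredoxin reduced, had 2 Known counts of 76 in replicate 1 and 7 of 74 in replicate 2. Its most abundant model was an NNC model of 17 exons and 1937 bases with the same intron chain in both libraries, which held 51 counts, or 67.1% (55.4 to 77.5), and 45 counts, or 60.8% (48.8 to 72.0). Of its introns 1 is not in the annotation, chr16:18443287-18454475. The annotation crosses this stretch by a short exon, of which it holds 2 forms. The sequences are shown because no counted model that crossed this stretch held either form. The transcript letters run 5′ to 3′ on mm10, with the short exon in capitals.
Txnrd2-203: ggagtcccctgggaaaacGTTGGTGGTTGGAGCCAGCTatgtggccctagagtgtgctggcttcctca
Txnrd2-212: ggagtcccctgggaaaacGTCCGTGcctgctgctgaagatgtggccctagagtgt
The short exon has 20 bases in Txnrd2-203 (chr16:18453721-18453740) and 7 bases in Txnrd2-212 (chr16:18451971-18451977), where the next exon begins 13 bases earlier, with cctgctgctgaag. Both forms are coding.

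Of the counts on models that crossed from exon 8, 61 of 62 in replicate 1 (98.4%, 91.3 to 99.96) lay on the new intron, over 9 models. In replicate 2 they were 49 of 52 (94.2%, 84.1 to 98.8), over 5 models. The others, 1 and 3 counts, went straight from the annotated end of exon 8 at 18443274 to the start used by Txnrd2-212. None used either annotated path, so a share of up to 4.84% in replicate 1 and 5.77% in replicate 2 is allowed by the count of 0. In the new path exon 8 runs on for 12 bases before the intron, and the next exon starts where it does in Txnrd2-212. From the annotated end of exon 8 to the end of the next exon the new path holds 117 bases, beside 112 in both annotated forms and 105 in the path without a short exon. The difference is 5 bases more or 7 fewer, neither a multiple of 3. The letters of the added 12 bases are not shown, and read sequences were not analysed here. These paths are those of the deposited models, and how reads were aligned at so short an exon was not tested. The annotated transcript with the most Txnrd2 counts, Txnrd2-206, is a partial one of 532 bases, so the rank per kilobase and the value adjusted for length of Txnrd2 rest on that length.

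**Figure D5:**
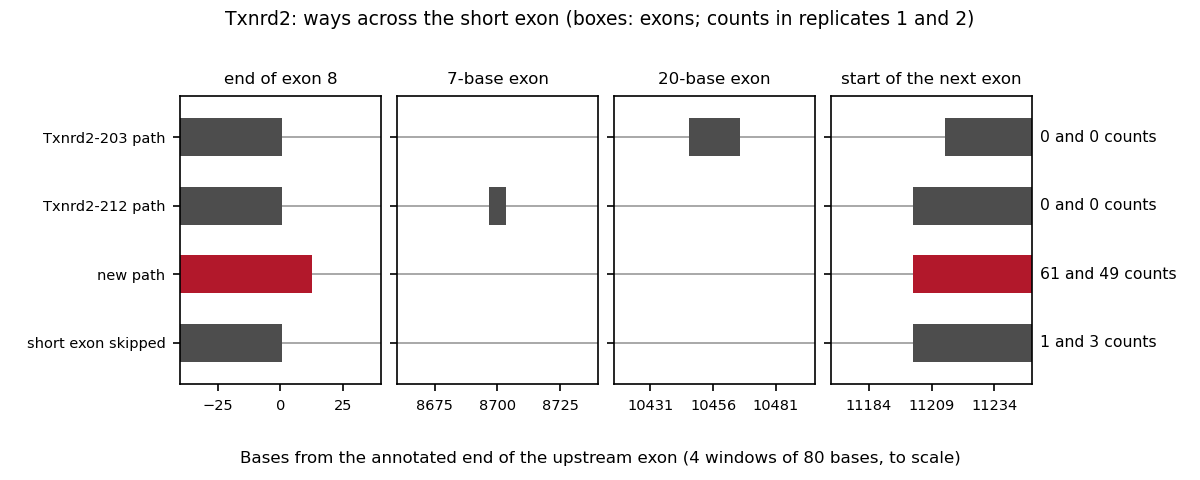
Ways across the short exon of Txnrd2, in 4 windows of 80 bases drawn to scale, with position in bases from the annotated end of exon 8, boxes for exons and lines for introns. The new path, in red, runs on past exon 8 and holds 61 and 49 counts, while both annotated paths hold 0 in each library.

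Other new models of the list were less abundant. An ISM model of Hmox2 with its last 3 exons held 16 counts (12.4%) and 10 (7.58%), and an ISM model of Txnrd2 with its last 8 exons held 11 and 15. An NNC model of Glrx held 10 (8.26%) and 12 (10.8%), with an intron at chr13:75847299-75849247 whose right end lies 4 bases from an annotated one. An NNC model of Sod2 with 4 counts in each library had an intron at chr17:13008387-13010522 whose right end lies 3 bases from an annotated one. ISM models of Sod2 (12 and 4 counts), Cat (2 and 12), Mgst3 (4 and 8), Gpx3 (8 and 2) and Gpx4 (9 and 1) completed the 10 highest multi-exon chains. In all, replicate 1 had 155 new multi-exon chains and replicate 2 had 132, and 65 were in both, which is 41.9% and 49.2% of each. Those 65 held 69.1% and 72.8% of the counts on new multi-exon chains.

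The single-exon ISM models with 10 or more counts, found in Prdx2, Glrx5, Sod2 and Gpx3, lay within the last exon of their gene. In Prdx2 they held 91 counts (8.67%) and 71 (7.36%) on 312 bases of exon 6 (chr8:84974000-84974311). In Glrx5 they held 58 (16.4%) and 65 (19.3%) on 465 bases of exon 2 (chr12:105040275-105040739). In Sod2 they held 27 and 34 counts and in Gpx3 29 and 18. The shares of Prdx2 and Glrx5 were thus close in the libraries, and in Glrx5 these models made up most counts outside Known models.

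Use of annotated transcripts did not pass the test in any gene of the list. For 14 genes the counts sufficed to set the dominant annotated transcript against the others in Fisher's exact test (two-sided), and 0 passed, beside 0.038% of 2633 genes. At an unadjusted p under 0.05 there was 1, Txn2, whose dominant Txn2-201 held 97.4% (95.6 to 98.6) and 99.3% (98.1 to 99.8) of annotated counts. The share on Known models was compared in 33 genes, of which 0 passed and 0 had an unadjusted p under 0.05 in Fisher's exact test, beside 0.193% of 5693 genes that passed. Prdx2 counts lay on several annotated transcripts, with 815 and 754 on Prdx2-201 and 61 and 69 on Prdx2-203. Prdx2-203 shares the start of its first intron with Prdx2-201 and differs in the end of that intron. Prdx2-202 held 16 and 14, and Prdx2-208, which starts 1 base before the second exon of Prdx2-201, held 55 and 49. Read ends were not analysed, so counts on Prdx2-208 cannot be told apart from shortened reads of Prdx2-201. Txnrd1-208 held 37 and 59 counts, beside 6 and 8 on Txnrd1-201 and 1 and 7 on Txnrd1-206. Gpx8-201 held 29 and 40 and the 2-exon Gpx8-202 held 7 and 7. Gpx4-202 held 651 and 548 counts, and Gpx4-207, which starts further downstream, held 2 and 4. The first exon of Gpx4-202 encodes the mitochondrial leader. Where reads begin within that exon was not analysed, so these counts do not tell how many reads hold the leader.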

How the data were processed

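Whole-number read counts per transcript model were deposited by the authors without normalization, per the file headers, with exon positions and model classes on mm10 and GENCODE M21. For the aligner and the annotation tool's version, the sources used here give no name. Counts were summed per gene, and models on spike-ins (1.72% and 1.25% of all counts) and on new genes (2.68% and 2.89%) were left out of totals and tests. Genes whose counts summed to 10 or more were compared with the library totals in an exact conditional binomial test (two-sided), adjusted over 10162 genes after Benjamini and Hochberg (SciPy 1.17.1, statsmodels 0.14.6). The threshold was 0.05 and the pseudocount 1 CPM. Fisher's exact tests used at least 20 counts in each library. The trend on length is a lowess curve (fraction 0.3) over genes with 50 or more counts. Alternatives used edgeR 4.0.16 and DESeq2 1.42.0 size factors. The procedure was tested on simulated data drawn with counting error alone, which cannot show how it behaves where libraries differ beyond counting error. With 1 library a side, these tests hold no spread between animals, and reads carry no molecular identifiers, so they need not be independent molecules.

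The genes and lists were chosen with earlier results of these data known. By rule, full values are given for genes past a test's threshold, the 2 highest of each role group, the genes with the highest and lowest share outside Known models, the 10 highest new multi-exon models, and, in each pathway list, genes past the threshold and the 3 highest by CPM. The account of Txnrd2 at its short exon, the single-exon models, the counts on other annotated transcripts and the pairs of enzymes were chosen after values were seen. Protein sequences were planned and not used here.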

Additional observations from a re-analysis of the deposited data

Results flagged for a closer look

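New genes that the authors' annotation placed on the opposite strand within loci of the list held counts that no comparison above uses. The 2 loci with the most such counts, Sod2 and Hmox2, are described here. Other loci held fewer, with the most at Prdx3 (4 in replicate 1 and 0 in replicate 2). At Sod2 there were 65 such counts in replicate 1, of which 63 lay on 1 model, and 34 in replicate 2, all on 1 model. The model with 63 counts is recorded as 1 base long and that with 34 counts as 390 bases, so what these reads cover in replicate 1 is not known. At Hmox2 there were 6 and 5, and in both libraries 5 of them lay on a model at the same place (chr16:4734973-4736488). With no control samples, these are set against the 3 counts that a count of 0 allows. Without knowledge of how strand was used, they cannot be told apart from reads of Sod2 and Hmox2.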

How the results depend on the processing

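Genes of the list higher in replicate 1 numbered 2 as reported, 5 with TMM scaling and 5 with DESeq2 size factors (Gpx3, Gpx4, Mgst3, Prdx1 and Prdx2 in each), 1 with no minimum count and 1 with Known models alone (Gpx3 in each), and 0 in edgeR's exact test with a common dispersion, where 1 had an unadjusted p under 0.05. With the trend on length removed they were 3 (Gpx3, Prdx1 and Sod2), beside 110 of 10162 genes in all. Genes higher in replicate 2 numbered 0 under each of these settings. Over all genes 148 were higher in replicate 1 with no minimum count and 137 with Known models alone, and edgeR's test called 12 and 10 in the 2 directions. Over the other alternatives run, Gpx3 kept an adjusted p under 0.05. Gpx4 lost it with no minimum count (adjusted p = 0.0759 in the exact test), with Known models alone (0.0842 in the exact test) and with the trend on length removed. The causes of these changes were not tested. The list's share of counts was 0.948% over Known models alone, and from 0.778% to 0.853% when each replicate in turn was left out. The share outside Known models was 6.10% with Genomic models left out and ran from 6.28% to 6.58% over single replicates. The 10 highest genes were the same in each library. No paired analysis was possible because there is only 1 group, and leaving out a library leaves no test between libraries.

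Counts limit most of the list: 20 genes had means below 100 CPM, where counting intervals of a ratio are wide, and 1 of the 37 was too low to test.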
